A study of Homo sapiens with 6 samples.

Results

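The RNAs described here were those of the mitochondrial genome and of nuclear genes that transcribe, stabilise and degrade them. Members were chosen by position and name: every row on the mitochondrial chromosome (chrM), sorted by its gene type into mRNA, rRNA or tRNA, together with a list of nuclear symbols. No expression value entered the choice itself, but the list was drawn up with results of these data in view, so counts over it are descriptions. There were 61 members among 44591 listed genes, namely 13 chrM mRNAs, 2 chrM rRNAs, 22 chrM tRNAs and 24 nuclear genes. Poly(A)-selected RNA from A2780 cells, a human ovarian cancer line labelled wild type, was sequenced in 6 libraries to ask how the cells respond to a protein released by cancer-associated fibroblasts. In 3 libraries the cells were untreated, and in 3 they had received recombinant human CRMP2 (r-CRMP2, collapsin response mediator protein 2) at 40 ng/ml for 48 h. Both groups grew in DMEM with fetal bovine serum, and a single line cannot speak for other ovarian cancers. The sources do not say whether the libraries of a group came from separate cultures, so the p-values measure the spread between these libraries, which may be technical.

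The mitochondrial genome is a small circle whose genes encode core subunits of respiratory complexes I, III and IV and of ATP synthase, with the rRNAs and tRNAs needed to translate them. Both strands are transcribed as long precursors by the RNA polymerase POLRMT with TFAM and TFB2M, and the tRNAs that lie between the coding stretches are cut out to release the rRNAs and mRNAs. Most mRNAs then receive poly(A) tails from MTPAP and are held by the LRPPRC-SLIRP complex, whereas the SUPV3L1-PNPT1 helicase and nuclease pair degrades RNA.

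All 37 chrM rows had the position and strand that GENCODE 29 (GRCh38) gives for its mitochondrial genes, so their sequences could be read from its transcripts. Neighbouring reading frames share bases at a few places, which are shown because a read lying in them cannot be given to a single gene. ATP8 and ATP6 share 46 bases and ND4L and ND4 share 7. ATP6 and COX3 share 1 base, at chrM position 9207. In the runs below, on the plus strand, capitals mark the shared bases and lower case their flanks.
ATP8/ATP6, chrM:8515-8584: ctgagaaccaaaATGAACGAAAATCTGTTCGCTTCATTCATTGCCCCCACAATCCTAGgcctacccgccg
ND4L/ND4, chrM:10748-10778: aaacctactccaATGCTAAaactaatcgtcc

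The last 30 bases of the genes with the 3 largest and the 3 smallest falls are shown next, because some of these genes end in a whole stop codon and others in a part of one that polyadenylation completes. Capitals mark the stop codon or the part of it, and the lines run in the sense of the gene. All are ends of annotated genes, and where the RNAs themselves end was not tested. The ends of ATP8 and ND4L lie inside the mRNA that each shares with its neighbour.
CYTB, chrM:15858-15887: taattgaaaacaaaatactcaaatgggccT
ATP8, chrM:8543-8572: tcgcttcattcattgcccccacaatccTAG
ND3, chrM:10375-10404: gactacaaaaaggattagactgaaccgaaT
ND4, chrM:12108-12137: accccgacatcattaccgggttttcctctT
ND4L, chrM:10737-10766: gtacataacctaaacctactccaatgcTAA
ND6, chrM:14149-14178, minus strand: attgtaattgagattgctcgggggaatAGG
In this annotation 6 of the 13 mRNA genes ended inside a stop codon and 7 carried it whole. The first set had a median log2 fold change of -1.27 (from -1.63 for CYTB to -0.38 for ND4) and the other of -0.67 (from -1.44 for ATP8 to -0.55 for ND4L). The ranges overlapped across most of their length, so these sets were not separated by size of change.

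All 13 mitochondrial mRNAs were lower after r-CRMP2. Fold changes were fitted with edgeR on counts scaled by the trimmed mean of M values (TMM), and adjusted p-values came from its quasi-likelihood test with Benjamini-Hochberg adjustment over the 16222 genes tested, the threshold being 0.05. All 13 fell, where 30.1% of all tested genes fell and 28.2% rose. At a log2 fold change of at most -1, 8 of the 13 fell, against 8.27% of all genes, and no member rose by 1 or more, against 4.88%. For all 13, every treated library lay below every untreated one, an order seen in 33.3% of tested genes. Their median log2 fold change was -1.20, beside -0.03 over all genes tested. In a bulk sample, fewer mitochondria-rich cells and less of these RNAs per cell cannot be told apart, nor can less RNA and less capture by oligo(dT).

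Levels are given as normalised CPM, counts brought to a common library size with TMM factors. Scaling mattered for small changes. The factors were 1.10 to 1.12 in untreated and 0.879 to 0.922 in treated libraries, and scaling by library size alone moved the median of all genes by -0.30 on the log2 scale. The calls over all genes then went from 4574 up and 4875 down to 2173 up and 8439 down. The 13 mRNAs fell under either scaling, with a median of -1.51 by library size alone.

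**Figure D1:**
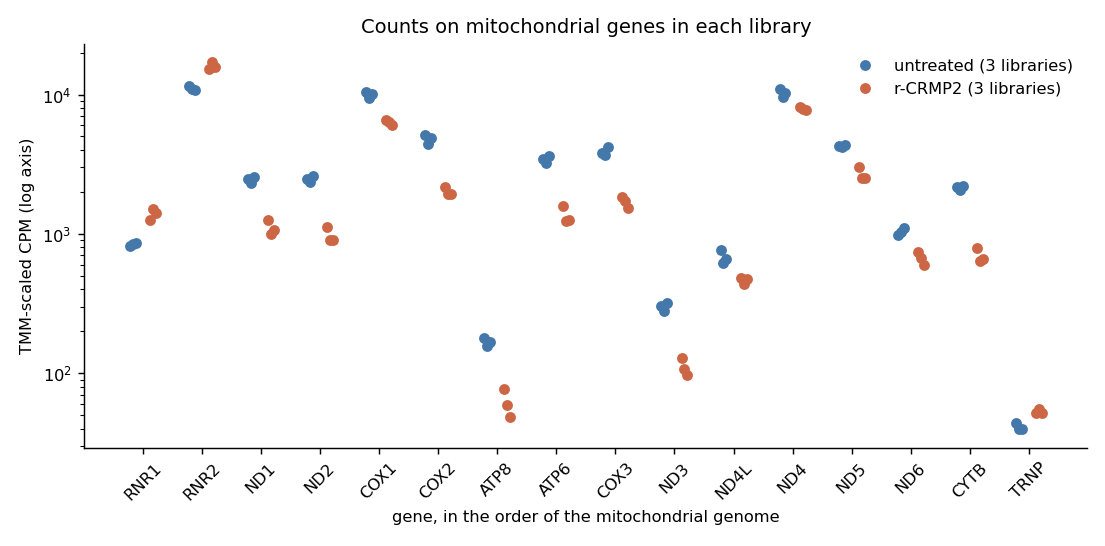
TMM-scaled CPM (log axis) of the 2 rRNAs, the 13 mRNAs and TRNP in each of 3 untreated and 3 r-CRMP2 libraries, in genome order. Treated points lie below untreated ones for each mRNA and above them for RNR1, RNR2 and TRNP.

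CYTB, the cytochrome b subunit of complex III and its sole mitochondrially encoded part, fell furthest. Its normalised CPM was 2177, 2053 and 2222 without treatment, against 786, 637 and 658 after r-CRMP2. The groups were far apart, with the first treated library the highest of its group. The fit gave a 3.10-fold lower level (log2 fold change -1.63 ± 0.10, SE, adjusted p = 3.1e-12).

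ATP8 and ATP6, subunits of the membrane part of ATP synthase that are read from a shared mRNA, both fell. ATP6 had 3435, 3222 and 3641 normalised CPM in untreated and 1577, 1241 and 1251 in treated libraries (log2 fold change -1.34 ± 0.12, SE, adjusted p = 1.6e-10). ATP8 went from 179, 156 and 168 to 77.4, 59.0 and 48.5 (log2 fold change -1.44 ± 0.20, SE, adjusted p = 2.1e-09). In both genes the first treated library was the highest of its group and still well under the untreated ones. The ratio of ATP6 to ATP8 counts, which no scaling affects, was 19.2, 20.6 and 21.6 in untreated and 20.4, 21.0 and 25.8 in treated libraries, and the groups overlapped (two-sided exact permutation p = 0.5).

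Complex IV, cytochrome c oxidase, has COX1, COX2 and COX3 as its mitochondrially encoded core. COX1 stood at 10442, 9419.6 and 10075 normalised CPM without and 6533, 6371 and 6086 with r-CRMP2 (log2 fold change -0.66 ± 0.05, SE, adjusted p = 1.0e-07). COX2 went from 5156, 4383 and 4854 to 2156, 1929.8 and 1921 (log2 fold change -1.26 ± 0.09, SE, adjusted p = 5.6e-11). COX3 went from 3786, 3686 and 4231 to 1826, 1711 and 1543 (log2 fold change -1.20 ± 0.09, SE, adjusted p = 1.3e-10). The groups did not overlap for any of these genes, and the fold for COX1 was 1.58 beside 2.40 for COX2 and 2.30 for COX3.

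Complex I, NADH dehydrogenase, takes 7 subunits from the mitochondrial genome, and these split into larger and smaller falls. ND1, ND2 and ND3, core membrane subunits, fell by more than 1 on the log2 scale. ND2 had 2485, 2341 and 2601 normalised CPM in untreated and 1127, 911 and 906 in treated libraries (log2 fold change -1.34 ± 0.11, SE, adjusted p = 8.1e-11). ND3 went from 304, 278 and 321 to 129, 108 and 97.0 (log2 fold change -1.43 ± 0.13, SE, adjusted p = 7.7e-11), and ND1 changed by -1.15 ± 0.11 (adjusted p = 4.5e-10). No treated library overlapped an untreated one in any of these genes.

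ND4L, ND4, ND5 and ND6 fell less. ND4, a proton-pumping subunit and the most abundant mitochondrial mRNA by counts, had 10969.7, 9551 and 10260.5 normalised CPM in untreated and 8100.0, 7892 and 7732 in treated libraries. Its groups were separate but close, with a 1.30-fold lower level (log2 fold change -0.38 ± 0.06, SE, adjusted p = 0.00011), the smallest change of the 13. ND4L, which shares its mRNA with ND4, changed by -0.55 ± 0.10 (adjusted p = 3.6e-06) and ND5 by -0.67 ± 0.09 (adjusted p = 2.6e-07). The ratio of ND4 to ND4L counts was 14.4, 15.5 and 15.6 in untreated and 16.8, 18.0 and 16.3 in treated libraries, so each treated library had more ND4 counts per ND4L count than any untreated one (two-sided exact permutation p = 0.1, the smallest that 3 against 3 libraries allow).

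ND6 is the only mRNA read from the other strand of the circle. It had 976, 1035 and 1109 normalised CPM in untreated and 736, 669 and 601 in treated libraries, with no overlap (log2 fold change -0.64 ± 0.10, SE, adjusted p = 5.8e-07). The ratio of counts on ND5, whose end adjoins that of ND6, to counts on ND6 was 4.35, 4.05 and 3.94 in untreated and 4.10, 3.75 and 4.17 in treated libraries and overlapped (two-sided exact permutation p = 0.6). The sources do not say that strand was used in counting, so precursor RNA from the opposite strand cannot be told from ND6 itself. Most but not all of these mRNAs receive poly(A) tails, and whether ND6 RNA carried one was not tested. After poly(A) selection its counts may therefore not reflect the whole of its mature mRNA.

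**Figure D2:**
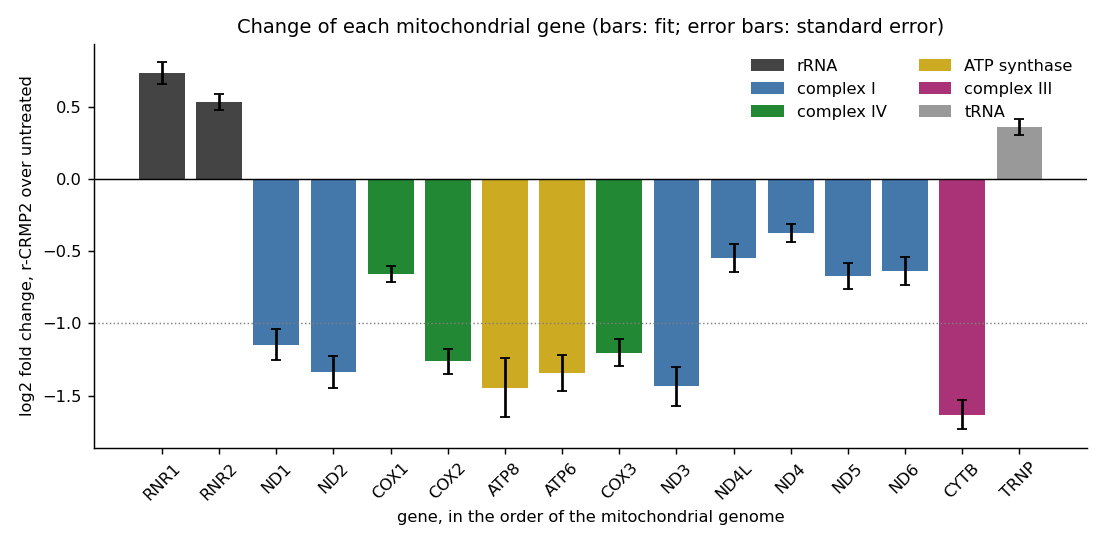
Log2 fold change of r-CRMP2 over untreated libraries for the mitochondrial genes in genome order, coloured by the complex or RNA class, with standard errors (n = 3 per group) and a dotted line at -1. The rRNAs and TRNP are above 0 and the 13 mRNAs below it, from -0.38 for ND4 to -1.63 for CYTB. With library size alone TRNP was 0.05.

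Per base of gene length, the order of the mRNA genes changed as well. In the deposited TPM, where counts are divided by gene length before scaling, the untreated means ± SD (n = 3) were 18155 ± 992 for ND4, 17101 ± 1155 for COX2, 15782 ± 609 for COX1, 12296 ± 722 for ATP6 and 12142 ± 933 for COX3. ND4 and COX2 lay within their spread of each other, as did COX2 and COX1 and then ATP6 and COX3. Below these came ND1 (6269 ± 306), ND2 (5796 ± 288), ND5 (5748 ± 147), ND4L (5579.9 ± 524), ND6 (4835 ± 358) and CYTB (4598 ± 163), with ND3 (2121 ± 143) and ATP8 (1976 ± 104) lowest. After r-CRMP2, ND4 led with 11178 ± 675 TPM, COX1 came next with 7995 ± 517 and then COX2 with 5709 ± 608. The spread no longer joined these genes, and CYTB (1187 ± 187) and ATP8 (582 ± 156) stood far below ND6 (2482 ± 315). ATP8 and ATP6 are read from a shared mRNA, as are ND4L and ND4, yet their TPM differed. The order is therefore one of annotated genes and not of mRNA molecules.

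The rRNAs went the other way. RNR1, the RNA of the small mitochondrial ribosomal subunit (chrM:648-1601), had 819.9, 845 and 854 normalised CPM in untreated and 1263, 1500.5 and 1419 in treated libraries. RNR2, that of the large subunit (chrM:1671-3229), had 11509.9, 11049 and 10721 and 15342, 17030.0 and 15672. Every treated library exceeded every untreated one for both, an order seen in 30.9% of all tested genes. Both rose, RNR1 1.66-fold (log2 fold change 0.73 ± 0.08, SE, adjusted p = 3.2e-08) and RNR2 1.44-fold (log2 fold change 0.53 ± 0.05, SE, adjusted p = 2.1e-06). With library size alone the rises were smaller but still passed, at 0.42 for RNR1 (adjusted p = 5.4e-06) and 0.22 for RNR2 (adjusted p = 0.00047). In poly(A)-selected libraries, more of these rRNAs and more capture of them by oligo(dT) cannot be told apart.

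The ratio of RNR2 to RNR1 counts was 14.0, 13.1 and 12.6 in untreated and 12.1, 11.3 and 11.0 in treated libraries. It was lower in all treated libraries, so captured counts on RNR1 gained more than those on RNR2 (two-sided exact permutation p = 0.1). Nuclear copies resembling RNR2 took few reads: the 10 MTRNR2L genes listed had at most 26 counts in any library, beside at least 271489 on RNR2.

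Of the 22 tRNA genes, 18 had no count in any library, which allows up to 3 counts per library, or at most 0.151 normalised CPM, by counting error alone. TRNP, the proline tRNA gene, held 98.5% to 99.7% of all tRNA counts. It borders the control region from which transcription starts, as does TRNF, the phenylalanine tRNA gene on the other side. Their sequences, all lower case and given in the sense of the tRNA, are shown because they were the tRNA genes with more than a handful of reads.
TRNP, chrM:15956-16023, minus strand: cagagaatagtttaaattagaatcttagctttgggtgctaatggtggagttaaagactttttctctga
TRNF, chrM:577-647, plus strand: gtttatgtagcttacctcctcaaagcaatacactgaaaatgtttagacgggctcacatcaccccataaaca
TRNP had 1216, 972 and 1095 counts in untreated and 1102, 1092 and 1184 in treated libraries, which overlapped as raw counts and did not overlap after TMM scaling. It rose by the main scaling (log2 fold change 0.36 ± 0.06, SE, adjusted p = 0.00024) but not with library size alone (0.05, adjusted p = 0.55). TRNF had 9, 1 and 9 counts against 16, 17 and 8, too few for the test. The cysteine and tyrosine tRNA genes, TRNC and TRNY, had 5 and 4 counts in all libraries together. The reads, before any trimming, were longer than the 68 bases of TRNP, and strand was not stated, so its counts may include other transcripts that cross it.

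Shares of the library amount to scaling by library size alone, so they depend on the rest of each library. The chrM genes took 6.55, 6.19 and 6.59% of all counts in untreated and 4.10, 3.87 and 3.76% in treated libraries. The mRNAs took 5.20, 4.85 and 5.28% and then 2.56, 2.24 and 2.23%. The rRNAs took 1.35, 1.34 and 1.30% and then 1.53, 1.63 and 1.53%. The mean share of mRNAs in treated libraries was 0.458 times that in untreated ones, and the share of rRNAs was higher in every treated library. The 95% Wilson intervals of a library's share reached at most 0.0090 percentage points to either side for mRNAs and 0.0052 for rRNAs, covering counting error only.

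Counts on rRNAs per 100 counts on mRNAs were 26.0, 27.5 and 24.6 in untreated and 59.7, 72.7 and 68.7 in treated libraries. The mean went from 26.0 ± 1.46 to 67.0 ± 6.65 (SD, n = 3). No treated library came near an untreated one. The part of capture by oligo(dT) in this ratio was not tested. For this ratio and for the shares of all chrM genes, mRNAs and rRNAs, the two-sided exact permutation p was 0.1, the smallest that 3 against 3 libraries allow, and after Benjamini-Hochberg adjustment over 23 such measures no value could be below 0.1.

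**Figure D3:**
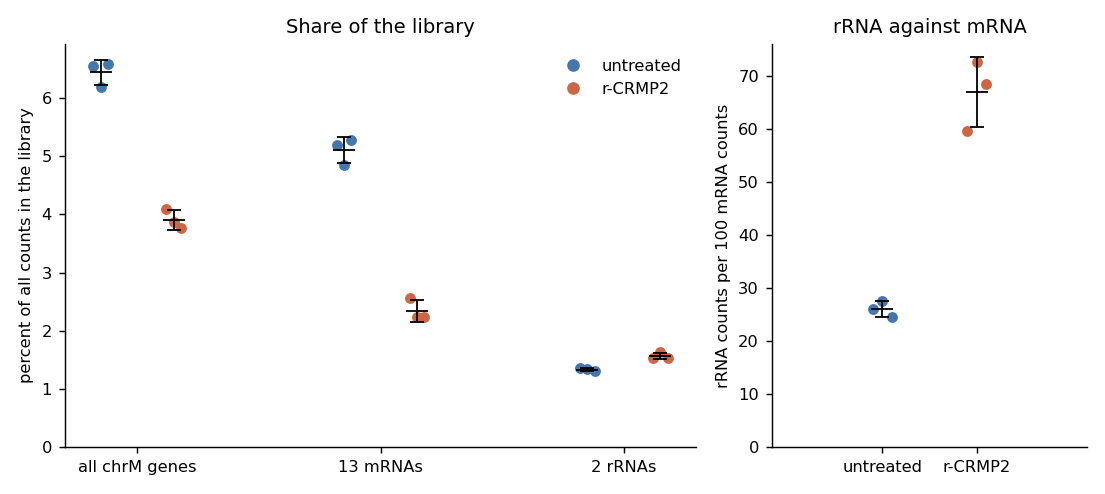
Left, percent of all counts in each library on all chrM genes, the 13 mRNAs and the 2 rRNAs; right, rRNA counts per 100 mRNA counts. Points are libraries and bars the mean ± SD (n = 3); the ratio is 24.6 to 27.5 in untreated and 59.7 to 72.7 in treated libraries.

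Within the mRNA counts, ND4 took 23.1, 22.1 and 21.8% in untreated and 29.1, 31.0 and 31.1% in treated libraries. COX1 took 22.0, 21.8 and 21.4% and then 23.5, 25.0 and 24.4%. CYTB went from 4.59, 4.75 and 4.72% to 2.83, 2.50 and 2.64%. ND4, COX1, ND4L, ND5 and ND6 held a larger part of the mRNA pool in every treated library, whereas COX2, COX3, ATP6, ATP8, ND1, ND2, ND3 and CYTB held a smaller part. Each such share reached the smallest possible exact permutation p of 0.1, and as the shares add up to the whole they are not independent of each other. Without ND4, the ratio of rRNA to mRNA counts still differed by 62.9 per 100, against 41.0 with it. Leaving ND4 out also lowers the mRNA counts that the rRNA counts are divided by, so these differences are not on a like scale.

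**Figure D4:**
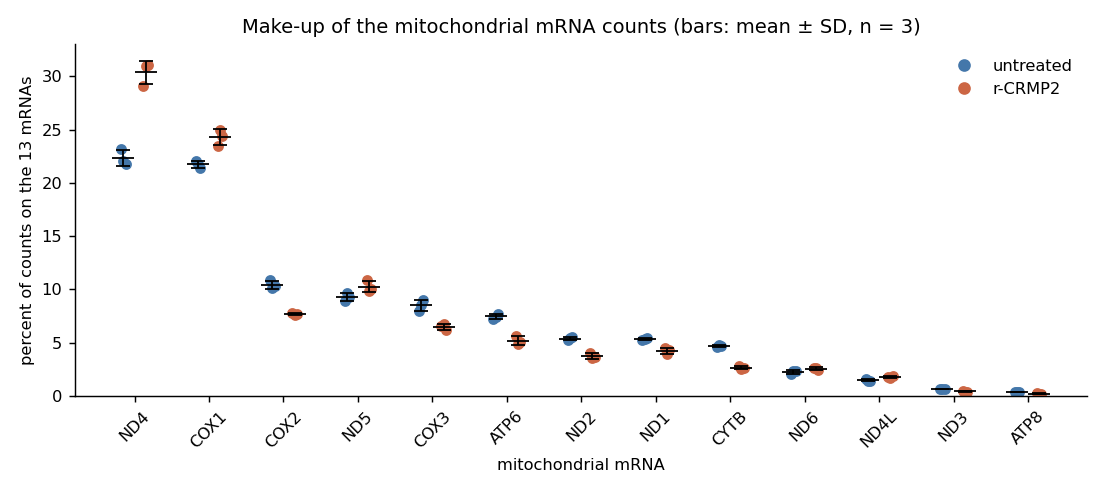
Percent of the counts on the 13 mitochondrial mRNAs that each took, by library (points) with mean ± SD (bars, n = 3 per group). ND4 takes 21.8 to 23.1% in untreated and 29.1 to 31.1% in treated libraries, and CYTB 4.59 to 4.75% and then 2.50 to 2.83%.

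Among the 24 nuclear genes, 13 fell and 4 rose, or 54.2% and 16.7%, beside 30.1% and 28.2% of all tested genes. None passed a log2 fold change of 1 in either direction. Their median was -0.24, beside -0.03 over all genes. All treated libraries lay below all untreated ones for 12 of them and above for 4, orders seen in 33.3% and 30.9% of all tested genes. With library size alone 19 fell and 1 rose, where 52.0% of all genes fell and 13.4% rose, and the median was -0.55 beside -0.33 over all genes.

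Of 9 genes of transcription and its termination, 6 fell and 2 rose, where 30.1% of all tested genes fell and 28.2% rose. POLRMT, the mitochondrial RNA polymerase, had 138, 122 and 125 normalised CPM in untreated and 145, 141 and 154 in treated libraries (log2 fold change 0.20 ± 0.06, SE, adjusted p = 0.015). Its groups were adjacent, the sign turned with library size alone (-0.11), and the call was lost without untreated replicate 2 or 3 or r-CRMP2 replicate 3 (adjusted p = 0.094, 0.067 and 0.084). TFB1M, which methylates the small-subunit rRNA, rose from 26.9, 21.6 and 22.5 to 33.2, 36.1 and 33.4 (log2 fold change 0.53 ± 0.10, SE, adjusted p = 3.7e-05), and it also rose with library size alone (0.22, adjusted p = 0.033).

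TFAM, which packages mitochondrial DNA and opens its promoters, had 41.4, 40.1 and 42.4 normalised CPM in untreated and 36.2, 35.5 and 31.7 in treated libraries. It fell 1.20-fold (log2 fold change -0.26 ± 0.06, SE, adjusted p = 0.0056), and the call was lost without r-CRMP2 replicate 3 (-0.20, adjusted p = 0.055). The initiation factor TFB2M (-0.23, adjusted p = 0.041) and the elongation factor TEFM (-0.44, adjusted p = 0.019) also fell, and each lost the call without several of the libraries. For TFB2M these were untreated replicates 2 and 3 and r-CRMP2 replicates 1 and 3 (-0.25, -0.15, -0.13 and -0.26), and for TEFM untreated replicates 1 and 3 and r-CRMP2 replicate 2 (-0.41, -0.39 and -0.31). TFB2M also lost it with DESeq2's size factors in edgeR (adjusted p = 0.063) and with DESeq2 itself (adjusted p = 0.096).

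The MTERF family binds mitochondrial nucleic acids and includes the factor named for terminating transcription behind the rRNA genes. That factor, MTERF1, had 5.60, 5.37 and 5.59 normalised CPM in untreated and 2.29, 2.88 and 3.57 in treated libraries, from 132 to 156 and from 49 to 82 raw counts. The groups were clear of each other at this low level (log2 fold change -0.90 ± 0.18, SE, adjusted p = 0.00019). MTERF2 (-0.66 ± 0.10, adjusted p = 0.0025) and MTERF4, which works in ribosome assembly (-0.51 ± 0.09, adjusted p = 0.00012), fell as well. MTERF3 stood at -0.14 (adjusted p = 0.32), and passed as lower with library size alone (-0.45, adjusted p = 0.0032).

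Of 10 genes of RNA stability and decay, 6 fell and 1 rose, where 30.1% of all tested genes fell and 28.2% rose. LRPPRC, whose protein keeps mitochondrial mRNAs stable and polyadenylated, had 334, 347 and 349 normalised CPM in untreated and 434, 409 and 441 in treated libraries. It was the most abundant of the 24 by counts, and it rose (log2 fold change 0.32 ± 0.04, SE, adjusted p = 0.00016), although with library size alone its change was 0.01 (adjusted p = 0.91). Its partner SLIRP stood at -0.20 (adjusted p = 0.081) with overlapping groups, and passed as lower without untreated or r-CRMP2 replicate 2 (-0.28 and -0.30) and with library size alone (-0.51, adjusted p = 0.00016). The poly(A) polymerase MTPAP was at -0.09 (adjusted p = 0.42), and at -0.40 with library size alone (adjusted p = 0.0015).

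The FASTK family, RNA-binding proteins that act on single mitochondrial transcripts or groups of them, fell in all 5 members of the list. Over all tested genes, 30.1% fell. FASTKD3 had 23.5, 22.3 and 25.7 normalised CPM in untreated and 12.5, 12.1 and 11.3 in treated libraries and was the largest change among the 24 (log2 fold change -0.99 ± 0.07, SE, adjusted p = 3.6e-08). FASTKD5, needed to process transcripts that lack a bordering tRNA, went from 14.3, 15.8 and 16.1 to 9.21, 10.7 and 7.87 (log2 fold change -0.73 ± 0.13, SE, adjusted p = 2.5e-05). FASTKD2, a factor of rRNA and ribosome assembly, changed by -0.51 ± 0.07 (adjusted p = 9.6e-05) and FASTK, whose mitochondrial form is needed for ND6 mRNA, by -0.29 ± 0.07 (adjusted p = 0.0013). FASTKD1 was at -0.30 (adjusted p = 0.032) with overlapping groups. It lost the call without untreated replicate 1 or 2 or r-CRMP2 replicate 2 or 3 (-0.26, -0.27, -0.23 and -0.25) and with DESeq2 (-0.28, adjusted p = 0.064).

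Of the degradation pair, PNPT1 passed the test and SUPV3L1 did not. The nuclease PNPT1 fell from 42.2, 34.7 and 41.7 to 28.5, 32.1 and 29.4 normalised CPM (log2 fold change -0.40 ± 0.10, SE, adjusted p = 0.00052). The helicase SUPV3L1 had 28.7, 28.3 and 29.9 and 27.3, 30.4 and 29.4, with overlapping groups and a log2 fold change near 0 (adjusted p = 0.97), and its sign turned under several settings. With library size alone it passed as lower (-0.31, adjusted p = 0.0023), as PNPT1 did (-0.71, adjusted p = 1.5e-06). The difference between the pair was not tested.

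The mitochondrial DNA polymerase showed small differences. Its catalytic subunit POLG had 140.0, 139 and 134 normalised CPM in untreated and 165, 155 and 165 in treated libraries and rose by the main scaling (log2 fold change 0.23 ± 0.03, SE, adjusted p = 0.0026), with the sign turned by library size alone (-0.08). The accessory subunit POLG2 stood at 0.17 (adjusted p = 0.14) with overlapping groups, passed as higher without r-CRMP2 replicate 2 (0.24, adjusted p = 0.043), and turned to -0.14 with library size alone.

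Of the nuclear regulators, PPARGC1B, a coactivator of mitochondrial biogenesis genes, fell from 16.9, 15.9 and 18.6 to 13.1, 8.78 and 9.78 normalised CPM (log2 fold change -0.69 ± 0.18, SE, adjusted p = 0.00010). Its relative PPARGC1A was at -0.12 (adjusted p = 0.40) and the transcription factor NRF1 at 0.05 (adjusted p = 0.73). With library size alone both passed as lower, PPARGC1A at -0.43 (adjusted p = 0.0055) and NRF1 at -0.26 (adjusted p = 0.033). For both of these genes the groups overlapped.

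**Figure D5:**
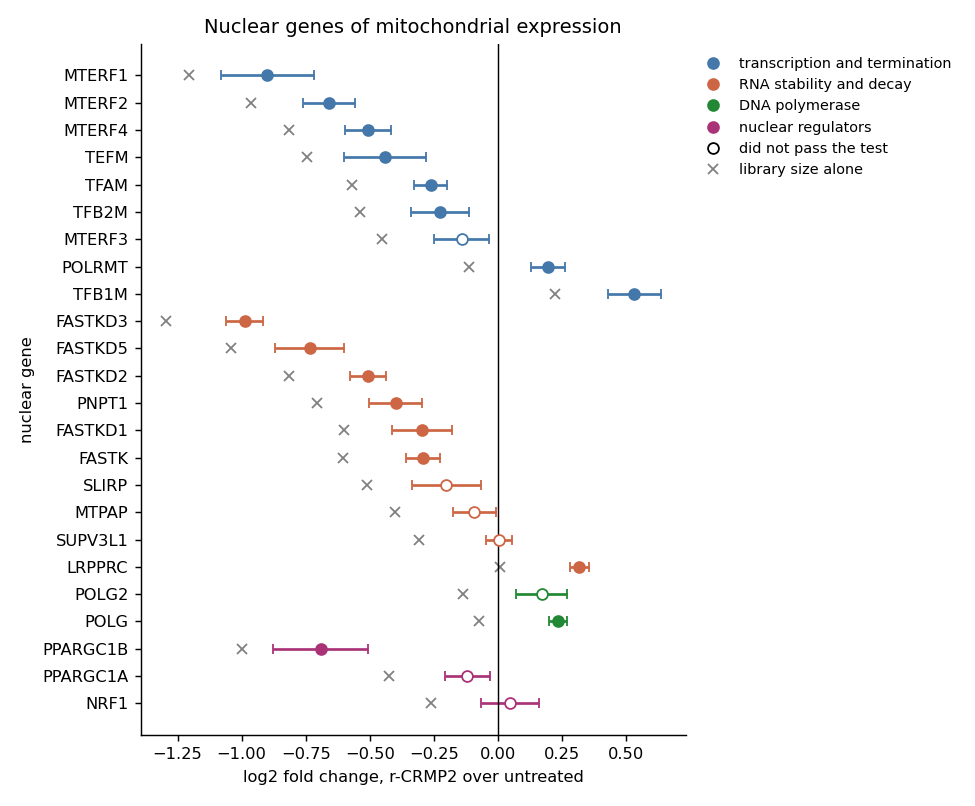
Log2 fold change ± SE (n = 3 per group) of the 24 nuclear genes by role, with filled points for genes that passed the test and open points for those that did not. Grey crosses give library size alone, where POLRMT, POLG, POLG2, NRF1 and SUPV3L1 change sign; with TMM scaling the genes run from -0.99 for FASTKD3 to 0.53 for TFB1M.

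NRF1 is known to bind promoters of genes for mitochondrial transcription, so the core of its motif was looked for as the letters CGCANGCG on both strands of RefSeq promoters (GRCh38.p14, 250 bases before to 50 after the start site). Of the 24 genes, 21 had a promoter in this table. The letters were in 6 of the 21 (28.6%) and in 10.0% of all 35116 promoters, a description and not a measure of binding. The matches and their surroundings are given in the sense of the gene, and capitals mark the motif, which POLRMT holds at 2 overlapping places.
TFAM, chr10:58385338-58385365, plus strand: cgctctcccgCGCCTGCGccaattccgc
TFB1M, chr6:155314598-155314625, minus strand: caggacttagCGCATGCGctctcagcac
TFB2M, chr1:246566260-246566287, minus strand: ctccgctgttCGCATGCGcaggctctag
POLRMT, chr19:633537-633570, minus strand: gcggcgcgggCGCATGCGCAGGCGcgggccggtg
MTPAP, chr10:30349330-30349357, minus strand: tcccccccgaCGCATGCGcgaaaacgcg
POLG2, chr17:64497050-64497077, minus strand: acctccgttgCGCCTGCGccgtggcctc
These genes did not share a direction. TFB1M and POLRMT rose by the main scaling, TFAM and TFB2M fell, and MTPAP and POLG2 did not pass.

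The nuclear-encoded subunits of the same complexes, a list added after values had been seen, are set beside the mitochondrial ones. Of 68 tested, 13 rose, 7 fell and 48 did not pass, where 28.2% of all tested genes rose and 30.1% fell, and the median was 0.03 beside -0.03 over all genes. By complex, the mitochondrial and the nuclear median were -0.67 and -0.01 for complex I (7 and 37 genes), -1.63 and 0.03 for complex III (1 and 9), -1.20 and 0.16 for complex IV (3 and 10) and -1.39 and 0.01 for ATP synthase (2 and 12). The summed normalised CPM of the 68 subunits was 6573 to 6823 in untreated and 6608 to 7628 in treated libraries, which overlapped.

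A wider list of 91 nuclear genes for mitochondrial DNA upkeep, RNA processing, translation and upstream control held 15 that rose and 42 that fell, beside 28.2% and 30.1% of all tested genes, with a median of -0.19. RNA processing and modification had 7 up and 18 down of 34, translation 1 and 10 of 22, DNA maintenance 4 and 8 of 18, and upstream regulators 3 and 6 of 17. The falling part of the upstream regulators was close to that over all genes. The largest change was in DDX28, a helicase of mitochondrial ribosome assembly, with 18.0, 21.0 and 21.6 normalised CPM in untreated and 4.63, 3.48 and 3.52 in treated libraries (log2 fold change -2.36 ± 0.15, SE, adjusted p = 2.7e-11). MRM1, which methylates the large-subunit rRNA, fell (-1.24, adjusted p = 2.1e-07), as did TRMT10C, a part of mitochondrial RNase P, which cuts the tRNAs out of precursors (-1.14, adjusted p = 4.0e-08).

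TACO1, a translational activator of COX1, also fell (-1.03, adjusted p = 2.8e-08). The other genes of this list named by size of change were ANGEL2 (-1.08), MTG1 (-0.92), TYMP (-0.90), TRMT61B (-0.88), the RNA methyltransferase NSUN2 (-0.86) and the mitochondrial DNA helicase TWNK (-0.85), and these fell as well.

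Total counts were 21888530 to 25711353 per library. The epithelial keratins KRT8, KRT18 and KRT7 were abundant in every library, EPCAM and PAX8 were low and WT1 had at most 3 counts. MUC16 had a mean of 42.7 normalised CPM in untreated and 33.2 in treated libraries. KRT18 rose (0.20), KRT7 (-0.21) and MUC16 (-0.36) fell, and KRT8, EPCAM and PAX8 did not pass. Markers of other cells were at or near 0 for PTPRC, CD3E, MS4A1 and FAP. CD14 had 10, 15 and 11 counts in untreated and 3, 0 and 1 in treated libraries. Of 5 leukocyte genes 1 was tested, CD68, which rose (1.68), with mean normalised CPM of 23.1 in untreated and 74.2 in treated libraries. The summed endothelial markers were 6.27 to 7.01 normalised CPM in untreated and 1.77 to 2.26 in treated libraries. Most of this was CDH5, which fell (-1.90), whereas PECAM1 and VWF were low and did not pass. The summed fibroblast markers were 469 to 538 normalised CPM in untreated and 397 to 408 in treated libraries. Most of that last sum was COL1A1, which fell (-0.41). Of the 5 fibroblast genes tested 2 rose and 2 fell, where 28.2% of all tested genes rose and 30.1% fell. The median of these 5 was 0.29. The nuclear-retained RNAs MALAT1 (1.08), NEAT1 (1.53) and KCNQ1OT1 (1.69) all rose, where 28.2% of all tested genes rose. Summed, they had 902 to 1007 normalised CPM in untreated and 2142 to 2415 in treated libraries. Their part in the lower mitochondrial mRNA counts was not tested.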

How the data were processed

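Poly(A)-selected RNA of A2780 cells was sequenced as paired ends, with 3 untreated and 3 r-CRMP2 libraries. The submitters' processing notes name hg19, FastQC, HISAT2 and DESeq2 without versions, and the counting tool, annotation and use of strand are not given in the sources used here. Per the file headers, each library has raw counts per gene made by the authors, and the deposited TPM equals count over the deposited gene length, rescaled (largest difference 4.7e-06). Nuclear positions are those of hg19, and the other column used was that gene length.

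Counts were scaled by TMM and fitted with edgeR 4.0.16 (R 4.3.3, limma 3.58.1), without covariates, using its quasi-likelihood test, the default low-count filter (16222 genes kept) and Benjamini-Hochberg adjustment over all of them at 0.05. Log2 fold changes used a prior count of 2, and their standard errors came from log2 CPM over the 3 replicates of each group. Shares and ratios within a library were compared with two-sided exact permutation tests over 20 splits, whose smallest p is 0.1. Alternatives were other scalings and filters, DESeq2 1.42.0, the study's fold threshold, a replicate block, TPM in place of counts and leaving out each library. Members and lists were chosen with earlier results of these data known. Named genes were all chrM mRNAs and rRNAs, the tRNAs with the most counts, the 24 nuclear members and the 10 largest called changes of the wider list. Reads were not analysed here.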

Additional observations from a re-analysis of the deposited data

How the results depend on the processing

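The 13 mitochondrial mRNAs fell under every scaling and filter, with DESeq2 and in each fit without 1 library (13 to 13), and 8 did so with the fold threshold of 1 added. Of the 24 nuclear genes, 13 fell and 4 rose; without 1 library 10 to 12 fell and 3 to 5 rose. With library size alone, which moves the median of all genes by -0.30, 1 rose, and with the fold threshold added 0 fell and 0 rose. The share of counts on chrM genes differed by -2.54 percentage points (-2.66 to -2.46 without 1 library, and -6.11 from TPM). The rRNA counts per 100 mRNA counts differed by 41.0 (38.2 to 44.7 without 1 library, and 30.6 from TPM). The replicate block left 13 mRNAs lower, and 13 nuclear genes lower and 4 higher, and changed no other call. Same-numbered libraries did not deviate together over all genes tested (correlations -0.02, 0.0038 and -0.03). A correlation over all genes cannot settle whether the libraries were paired. With the block, the edgeR adjusted p went from 2.1e-09 to 1.4e-14 for ATP8 and from 0.00011 to 0.0011 for ND4.

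For single genes, 207 of 208 alternative values of the chrM genes kept their direction and call, and TRNP lost its call with library size alone. Of 442 values of the nuclear members and the named genes of the wider list, 12 changed sign. Among the values that kept their sign, 19 lost a call and 7 gained one. Signs changed with library size alone for NRF1 (-0.26), POLG (-0.076), POLG2 (-0.14), POLRMT (-0.11) and SUPV3L1 (-0.31). There POLG and POLRMT also lost their calls, and NRF1 and SUPV3L1 passed as lower. NRF1 was -0.016 without untreated replicate 2 and ranged from there to 0.13 without 1 library. SUPV3L1 was -0.0051 with no filter on low counts, -0.012 with at least 10 counts in every library, and -0.0044, -0.013, -0.019 and -0.00030 without untreated replicate 1 or 2 or r-CRMP2 replicate 2 or 3 (up to 0.058 without 1 library), and the cause was not tested. For 21 of 22 tRNAs the counts were too few for the test, and the part of depth, poly(A) selection and read length in that was not tested.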
